A study of Sus scrofa with 3 samples.

Results

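The proteasome genes were followed in RNA-Seq libraries of visceral adipose tissue (VAT) from male Chinese Wuzhishan miniature pigs. Members were chosen by name alone: every gene of type mRNA whose symbol is PSMA, PSMB, PSMC, PSMD, PSME, PSMF or PSMG followed by a number. This rule found 43 genes among the 22826 mRNA genes, out of 34570 genes of all types. All pigs, bought at 6 to 7 months of age, ate an HFC diet, rich in fat and cholesterol, for 12 weeks. Intact males (IM) had skin incisions only, castrated males (CM) had the testes removed, and castrated males with testosterone replacement (CMT) had the testes removed and then received testosterone propionate in corn oil, at 10 mg/kg body weight, by intramuscular injection every week. The tissue was retroperitoneal fat. Each group is 1 library made from pooled RNA, of 4 to 6 pigs by the sample labels but 4 by the methods, so the spread between pigs cannot be seen, no test was possible, and each difference below is a difference between libraries.

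The proteasome is the large protease that breaks down proteins tagged with ubiquitin. Its 20S core is a barrel of stacked rings, with alpha subunits (PSMA genes) at the ends and beta subunits (PSMB genes), some of which cut, in the middle. The 19S regulatory particle caps the core: its PSMC subunits are ATPases that unfold the substrate, and its PSMD subunits bind ubiquitin, remove it or hold the lid together. In immune cells and under interferon, PSMB9, PSMB8 and PSMB10 replace the cutting subunits PSMB6, PSMB5 and PSMB7, which gives the immunoproteasome, a form that favours peptides for MHC class I molecules. The PSME genes encode other caps, PSMF1 an inhibitor of the core, and the PSMG genes chaperones that build the core, while PSMD5, PSMD9 and PSMD10 help to build the 19S particle.

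Levels are given as UQRPKM, a form of RPKM that divides the reads per kilobase of each gene by the library's upper quartile and not by its total reads. Since values are per length, levels can be compared between genes. The IM, CM and CMT values stand for at least 16611931, 15561124 and 15106608 whole reads. Reads were recovered from the values, and those of a gene can be too low by a common factor. Proteasome genes were well covered: the 36 measured ones had a median of 832.5, 908 and 998.5 reads in IM, CM and CMT, compared with 225, 208 and 211.5 for all mRNA genes at 1 UQRPKM or more in every library. A log2 ratio below is the ratio of UQRPKM without a pseudocount, followed by its exact Clopper-Pearson 95% interval from the reads. These intervals, and those of ratios between genes, cover counting error only and not differences between pigs or pools.

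The adipocyte markers in the files, ADIPOQ, PLIN1, LEP, CIDEC and LIPE (5 of 7 listed), had a summed level of 121105, 114970 and 97663 UQRPKM in IM, CM and CMT. LEP, the gene of leptin, was a small part of that sum and went against it, at 167, 502 and 156 UQRPKM. Markers of other tissues differed far more. The 7 hepatocyte markers summed to 2555, 8991 and 1735 UQRPKM, of which APOA1 made up 2539, 2339 and 1714 UQRPKM, and ALB alone, the gene of serum albumin, had 10, 10612 and 15 reads. In IM, APOC3 and SERPINA1 were listed at 0, and SERPINA1 was also at 0 in CMT. The 8 skeletal muscle markers summed to 79.6, 65.9 and 5894 UQRPKM, with CKM listed at 0 in every library. The 3 neutrophil markers summed to 499, 4878 and 960.1 UQRPKM. The other lists, in the order IM, CM and CMT, summed to 7665, 6471 and 6074 UQRPKM for 9 macrophage markers (CD163 listed at 0), 760.2, 639 and 638 for 9 T and NK cell markers, 51.7, 40.3 and 37.8 for 4 B cell markers, 6630.1, 5844 and 6475 for 3 of 4 endothelial markers, 40.9, 75.9 and 173 for 3 mesothelial markers, and 19356, 16793 and 20792 for 5 fibroblast markers. The macrophage sum was mostly C1QA and C1QC, while EMR1 stood at 45.6, 93.6 and 30.6 UQRPKM and LOC100520753 at 17.2, 42.9 and 22.2 UQRPKM, both highest in CM. DCN led the fibroblast sum, at 11012, 11157.5 and 14747 UQRPKM. PDGFRA was also highest in CMT, while COL1A1, PDGFRB and THY1 were highest in IM. PECAM1 led the endothelial sum, at 4338, 4038 and 4735 UQRPKM, while VWF and KDR were highest in IM. The part of these cells in the proteasome values was not tested, and fewer cells of a type cannot be told apart from less RNA per cell in bulk tissue.

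Of the 43 proteasome genes, 36 reached 1 UQRPKM in every library. Another 6 were listed at 0 everywhere: PSMB1 and PSMB3 of the core, PSMD7 of the 19S particle, the immunoproteasome gene PSMB10, and PSMA8 and PSMB11, which are known for testis and thymus. PSMB1, PSMB3 and PSMD7 encode parts of every proteasome, so a listed 0 is not read here as a silent gene. PSMD10 was at 0.432, 0 and 1.32 UQRPKM in IM, CM and CMT, which is 1, 0 and 3 reads. Subunits stored under other symbols lie outside the naming rule, and 3 of these had reads: PSMB5 (deposited as LOC100155139), PSMC5 (as TBP10) and PSMD3 (as LOC100512253). Another gene overlaps 9 of the members in RefSeq (PSMA3, PSMA7, PSMC1, PSMD1, PSMD6, PSMD10, PSMD14, PSME1 and PSMG2), and whether counting used strand is not given in the sources used here, so their reads may include those of the neighbour.

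Subunits of 1 complex were far from equal in mRNA level. In the 20S core, the 10 measured genes ran from 411 UQRPKM (PSMA3) to 3195 UQRPKM (PSMA7) in IM, a 7.77-fold range. In the 19S particle, the 13 measured genes ran from 77.2 UQRPKM (PSMD12, a lid subunit) to 3215 UQRPKM (PSMC3, an ATPase), a 41.6-fold range. The constitutive beta subunits PSMB4, PSMB6 and PSMB7 lay close together, between 1528 and 2060.3 UQRPKM in IM. Among the caps and the inhibitor, PSME1 was highest at 2754 UQRPKM and PSME4 lowest at 69.6 UQRPKM. The 6 measured chaperones ran from 131 UQRPKM (PSMG2) to 443 UQRPKM (PSMD9), a 3.39-fold range. PSMB8 and PSMB9, at 286 and 158 UQRPKM in IM, lay below every measured gene of the constitutive core. The order of levels held across libraries: over the 36 genes, Spearman's rho was 0.980 between CM and IM, 0.990 between CMT and CM and 0.981 between CMT and IM, and over 13858 mRNA genes it was 0.979, 0.975 and 0.978. These are descriptions across genes, which share libraries and gene lengths.

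**Figure D1:**
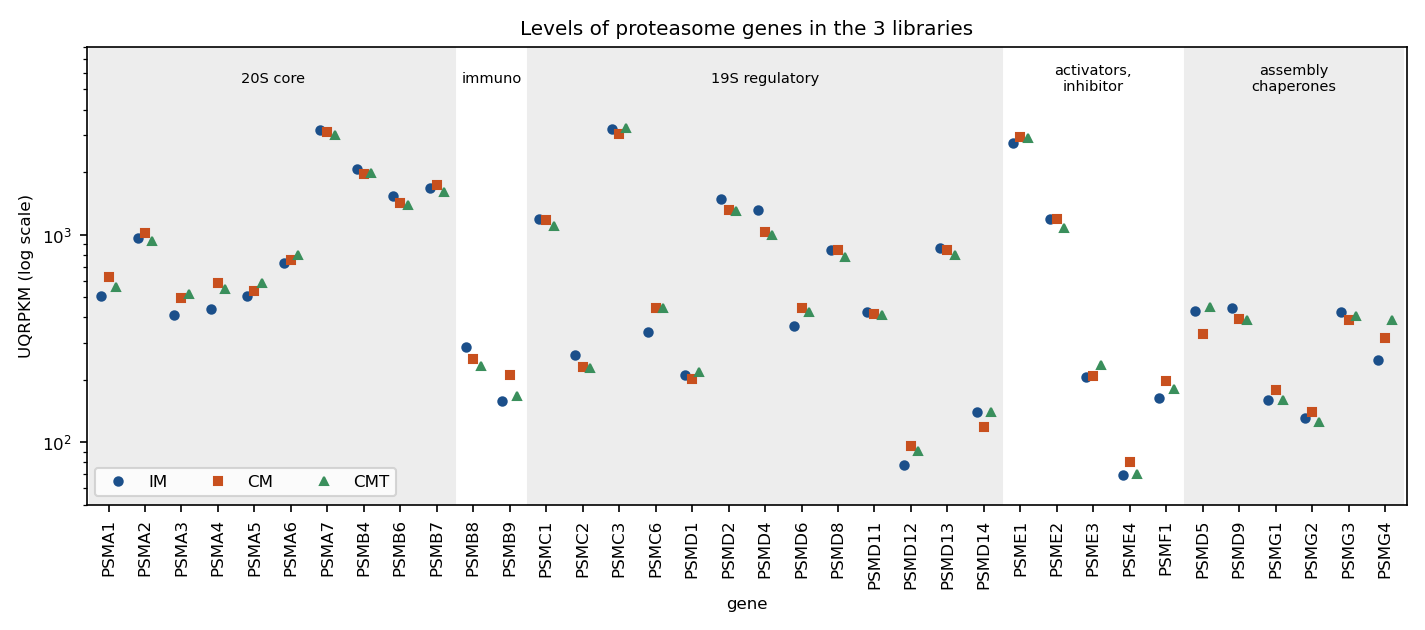
Level of each measured proteasome gene in UQRPKM (log axis) in the 3 libraries, 1 point per library (circle IM, square CM, triangle CMT), grouped by role. Levels run from 69.6 UQRPKM (PSME4 in IM) to 3265 UQRPKM (PSMC3 in CMT), and the points of most genes lie close together.

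The level of each subunit differed little between libraries. The highest library was a median of 1.14-fold above the lowest over the 36 genes, from 1.03-fold for PSMD11, a lid subunit, to 1.56-fold for PSMG4, a core chaperone. For 35 of the 36 (97.2%) it was under 1.5-fold, compared with 67.2% of 13858 mRNA genes and 84.0% of the 9057 mRNA genes with at least 300 reads in all. Medians of highest over lowest in these wider sets were 1.33 and 1.246. The limit of 300 reads is a total over the libraries, while the 36 genes had a median of 832.5 reads in IM alone. These values are thus not matched for depth. Summed over its measured genes, the core stood at 12016, 12246 and 11911 UQRPKM in IM, CM and CMT, and the 19S particle at 10714, 10212 and 10182 UQRPKM.

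**Figure D2:**
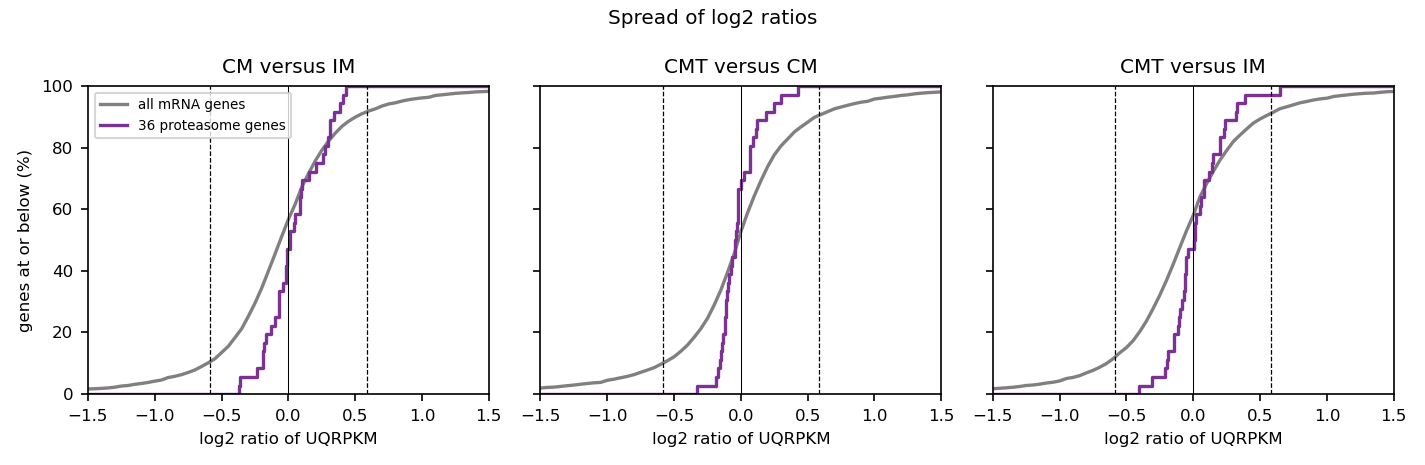
Share of genes (%) at or below each log2 ratio of UQRPKM for the 36 measured proteasome genes (purple) and for all mRNA genes at 1 UQRPKM or more in both libraries (grey), 1 panel per comparison. Dashed lines mark 1.5-fold, and the purple curve rises more steeply than the grey one: between CM and IM, for example, it spans −0.37 to 0.43, while PSMG4 alone passes the line in CMT versus IM. The purple and grey sets are not matched for depth.

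Between CM and IM, the comparison that asks what castration changed, no proteasome gene differed by 1.5-fold. PSMA4, PSMB9 and PSMC6 were the furthest above IM, and PSMD5 and PSMD4 the furthest below. The count was 0 of 36 higher and 0 of 36 lower, beside 8.38% and 10.4% of 14123 mRNA genes. Genes with many reads seldom pass this fold: among those with at least 200 reads over the pair, a limit chosen after seeing the data, 2.64% were higher and 4.34% lower. The median log2 ratio was 0.01, with quartiles of −0.08 and 0.22, against −0.06 for all mRNA genes. A counting interval on 1 side of 0 was found for 11 genes above IM (30.6%, beside 15.6% of all) and 7 below (19.4%, beside 26.6% of all). Such an interval clears 0 more readily with more reads. Proteasome genes had a median of 832.5 reads in IM, against 225 for all mRNA genes. No interval share was computed for genes of like depth, so these shares are not matched for depth. The 11 above were PSMA1, PSMA3, PSMA4, PSMB9, PSMC6, PSMD6, PSMD12, PSME1, PSME4, PSMF1 and PSMG4, and the 7 below were PSMB8, PSMC2, PSMC3, PSMD2, PSMD4, PSMD5 and PSMD14. The split depends on scaling: it was 13 above and 3 below by the median ratio over genes, and also 13 and 3 by total mRNA reads. Interval shares of all mRNA genes were not computed at those scalings. The share of all mRNA genes with a log2 ratio above 0 was 43.2% by the upper quartile. It was 50.1% by the median ratio and 49.7% by total mRNA reads. For the 36 proteasome genes it was 52.8%, 66.7% and 66.7%. Each other scaling raises every log2 ratio of this comparison, so the 11 genes above could not lose their side. Of the 7 below, PSMD2, PSMD4 and PSMD5 kept theirs under each scaling.

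Between CMT and CM, the comparison that asks what testosterone changed after castration, again no proteasome gene differed by 1.5-fold. PSMD5 and PSMG4 were the furthest above CM and PSMB9 the furthest below. The count was 0 of 36 in each direction, beside 9.53% of 14098 mRNA genes higher and 9.97% lower, or 3.43% and 4.33% of genes with at least 200 reads over the pair. The median log2 ratio was −0.04, from −0.33 to 0.43, against −0.02 for all mRNA genes. Counting intervals lay above 0 for 5 genes (13.9%, beside 17.3% of all), which were PSMC3, PSMD5, PSMD14, PSME3 and PSMG4. They lay below 0 for 8 genes (22.2%, beside 21.1% of all), which were PSMA1, PSMA2, PSMB7, PSMB9, PSMC1, PSMD8, PSMD13 and PSME4. As above, these shares are not matched for depth. Scaled by the median ratio the split was 6 above and 5 below, and scaled by total mRNA reads it was 7 above and 1 below. Log2 ratios above 0 made up 47.3% of all mRNA genes by the upper quartile, 49.5% by the median ratio and 54.9% by total mRNA reads. For the 36 proteasome genes the share was 33.3%, 33.3% and 55.6%. Here too each other scaling raises every log2 ratio, so the 5 genes above could not lose their side. PSMB9 was the only one of the 8 below that kept its side under each scaling.

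Between CMT and IM, 1 gene passed 1.5-fold: PSMG4, which was 1.56-fold higher in CMT. This is 1 of 36 higher, beside 8.81% of 14151 mRNA genes, and 0 of 36 lower, beside 11.9%. Of genes with at least 200 reads over the pair, 2.97% were higher and 6.21% lower. The median log2 ratio was 0.01, from −0.40 for PSMD4 to 0.65 for PSMG4, against −0.08 for all mRNA genes. Counting intervals lay above 0 for 10 genes (27.8%, beside 15.0% of all), which were PSMA1, PSMA3, PSMA4, PSMA5, PSMC6, PSMD6, PSMD12, PSME1, PSME3 and PSMG4. They lay below 0 for 9 of the 36 (beside 29.5% of all), which were PSMA7, PSMB6, PSMB8, PSMC1, PSMC2, PSMD2, PSMD4, PSMD8 and PSMD13. These shares, too, are not matched for depth. The median over all mRNA genes moved most with scaling here, from −0.08 to 0.04 when reads are divided by total mRNA reads. The split then was 15 above and 3 below, and by the median ratio it was also 15 and 3. Log2 ratios above 0 made up 42.0% of all mRNA genes by the upper quartile, 50.3% by the median ratio and 53.8% by total mRNA reads. For the 36 proteasome genes the share was 52.8%, 69.4% and 80.6%. Since each other scaling again raises every log2 ratio, the 10 genes above could not lose their side. Of the 9 below, PSMB8, PSMD2 and PSMD4 kept theirs. This comparison shares a library with each of the others, so the lists are not independent of theirs.

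**Figure D3:**
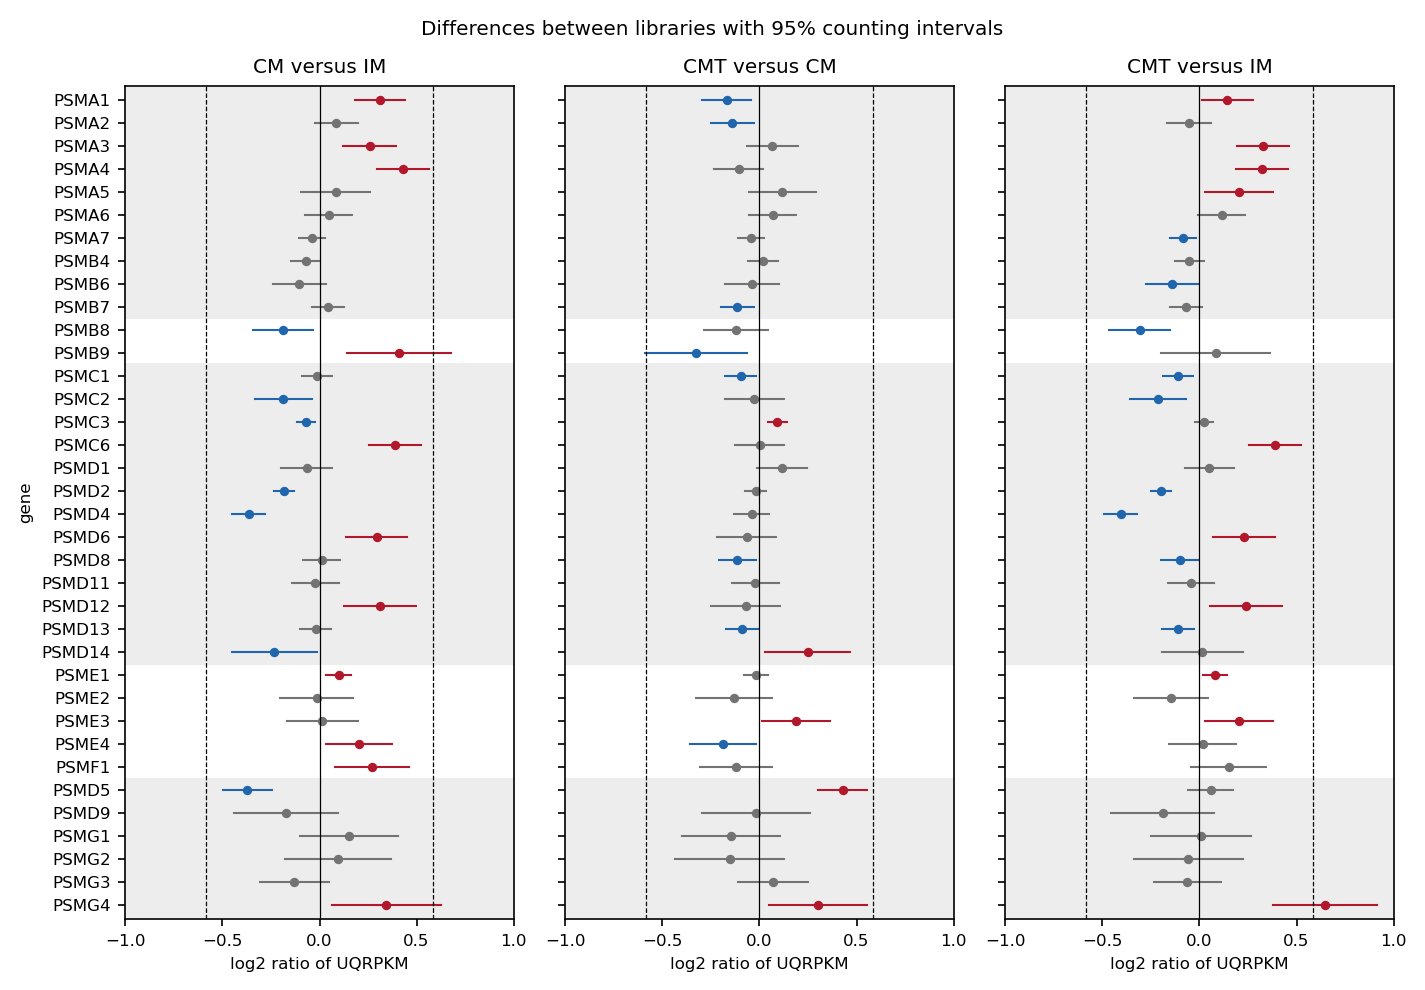
Log2 ratio of UQRPKM for each measured proteasome gene in the 3 comparisons, with bars for the 95% counting interval. Points are red where the interval lies above 0, blue where it lies below 0 and grey otherwise, and dashed lines mark 1.5-fold. Only PSMG4 in CMT versus IM, at 0.65, lies past a dashed line. The split of red and blue shifts toward red under other scalings, which raise the ratios of all genes.

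Within the 20S core, the alpha subunits PSMA1, PSMA3 and PSMA4 stood higher in CM than in IM. PSMA4 was at 436, 587 and 545 UQRPKM in IM, CM and CMT. PSMA1 was at 504, 626 and 557 UQRPKM, and PSMA3 at 411, 492 and 515 UQRPKM. IM was the lowest library for all of these alpha subunits, which form the outer ring that gates entry to the barrel. For PSMA4 the log2 ratio was 0.43 [0.30, 0.56] between CM and IM, −0.11 [−0.23, 0.02] between CMT and CM and 0.32 [0.19, 0.46] between CMT and IM. PSMA5 was at 506, 536 and 582 UQRPKM and PSMA6 at 733, 757 and 793 UQRPKM, with CMT highest for both. PSMA2, at 962, 1021 and 927 UQRPKM, and PSMA7, at 3195, 3109 and 3016 UQRPKM, differed by at most 1.10-fold and 1.06-fold over the libraries.

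Among the constitutive beta subunits, no difference reached 1.5-fold. PSMB4, which does not cut, was at 2060.3, 1959.9 and 1987 UQRPKM in IM, CM and CMT. PSMB6, with caspase-like activity, was at 1528, 1422 and 1385 UQRPKM, and PSMB7, with trypsin-like activity, at 1681, 1735 and 1603 UQRPKM. PSMB5, with chymotrypsin-like activity, was at 1185, 1225 and 1048 UQRPKM. CMT was the lowest library for PSMB5, PSMB6 and PSMB7, by at most 0.23 on the log2 scale (PSMB5 between CMT and CM, −0.23 [−0.31, −0.14]). Over the 10 measured core genes, the median log2 ratio was 0.07 between CM and IM, −0.04 between CMT and CM (0.01 scaled by total mRNA reads) and 0.03 between CMT and IM (−0.05 with PSMB5 added, 0.11 scaled by the median ratio and 0.14 by total mRNA reads).

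In the 19S particle, a ubiquitin receptor and the large scaffold subunit were lower in CM and CMT than in IM, while an ATPase and a pair of lid subunits were higher. PSMD4, which binds ubiquitin chains, was at 1319, 1024 and 996 UQRPKM in IM, CM and CMT. Its log2 ratio was −0.36 [−0.45, −0.28] between CM and IM and −0.40 [−0.49, −0.32] between CMT and IM, while CMT and CM differed by −0.04 [−0.13, 0.05]. PSMD2, the scaffold that docks ubiquitin-like proteins, was at 1489, 1312 and 1296 UQRPKM, which gives −0.18 [−0.23, −0.13] between CM and IM. For PSMD2 and PSMD4, IM was the highest library, and the interval between CMT and CM took in 0.

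PSMC6, an ATPase of the ring, was lowest in IM, at 338, 443 and 443 UQRPKM, a log2 ratio of 0.39 [0.25, 0.52] between CM and IM and 0.39 [0.26, 0.52] between CMT and IM. PSMC2, another ATPase of the same ring, was at 263, 231 and 227 UQRPKM, so IM was the highest library. Its counting interval against IM takes in 0 under other scalings, with log2 ratios of −0.13 [−0.27, 0.02] between CM and IM and −0.13 [−0.28, 0.01] between CMT and IM by the median ratio. The ratio of PSMC6 to PSMC2, in which scaling cancels, was 1.29 in IM, against 1.92 in CM and 1.96 in CMT. This pair was chosen after its values were seen, as was PSMA4 to PSMD4, a core and a 19S subunit, whose ratio was 0.331, 0.573 and 0.548. In each of these pairs, CM and CMT lay close to each other and IM apart. As the pairs were chosen with these values seen, this is no separate result.

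PSMC3 and PSMC1 differed by at most 1.07-fold and 1.08-fold over the libraries. PSMC3 was at 3215, 3064 and 3265 UQRPKM, and PSMC1 at 1184, 1173 and 1096 UQRPKM. PSMC5, outside the naming rule, was at 2368, 2100.0 and 2012 UQRPKM, a log2 ratio of −0.24 [−0.29, −0.18] between CMT and IM. Of the lid subunits, PSMD6 stood at 362, 444 and 424 UQRPKM and PSMD12 at 77.2, 95.8 and 91.2 UQRPKM, with IM lowest for both. PSMD14, the enzyme that removes ubiquitin before unfolding, was at 139, 118 and 141 UQRPKM, and CM was its lowest library. The remaining lid and base subunits PSMD1, PSMD8, PSMD11 and PSMD13 had a highest library at most 1.08-fold above the lowest. PSMD3, a lid subunit outside the naming rule, was at 673, 626 and 567 UQRPKM. Over the 13 measured 19S genes, the median log2 ratio was −0.02 between CM and IM, −0.03 between CMT and CM and −0.04 between CMT and IM, and each of these turns positive when reads are scaled by total mRNA reads (0.04, 0.03 and 0.07).

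The immunoproteasome genes PSMB8 and PSMB9 differed in opposite directions between CM and IM. PSMB8 was at 286, 252 and 232 UQRPKM in IM, CM and CMT, on 750, 628 and 594 reads. PSMB9 was at 158, 210.1 and 168 UQRPKM, on 211, 267 and 219 reads. IM was thus the highest library for PSMB8 and the lowest for PSMB9, and CM the highest for PSMB9. For PSMB8 the log2 ratio was −0.19 [−0.34, −0.03] between CM and IM, −0.12 [−0.28, 0.04] between CMT and CM and −0.31 [−0.46, −0.15] between CMT and IM. With reads scaled by total mRNA reads, the first of these was −0.13 [−0.28, 0.03] and the last −0.19 [−0.35, −0.04]. For PSMB9 it was 0.41 [0.14, 0.68] between CM and IM, −0.33 [−0.59, −0.06] between CMT and CM and 0.08 [−0.20, 0.36] between CMT and IM. CM was also the library with the most hepatocyte and neutrophil marker mRNA, at 8991 and 4878 UQRPKM, while T and NK cell markers summed to 760.2 UQRPKM in IM and 639 in CM, and their part in the PSMB8 and PSMB9 values was not tested. PSMB10 was listed at 0 in every library, so its ratio to PSMB7 could not be formed.

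The ratio of each inducible subunit to the constitutive subunit it replaces needs no scaling between libraries. PSMB8 to PSMB5 was 0.242, 0.205 and 0.221 in IM, CM and CMT. The log2 change was −0.23 [−0.41, −0.06] between CM and IM, 0.10 [−0.08, 0.29] between CMT and CM and −0.13 [−0.31, 0.05] between CMT and IM, with exact conditional 95% intervals of the odds ratio of reads. Against the median of the core subunits in place of PSMB5, PSMB8 changed by −0.07 between CMT and CM and −0.33 between CMT and IM. PSMB9 to PSMB6 was 0.104, 0.148 and 0.121, a log2 change of 0.51 [0.21, 0.81] between CM and IM, −0.29 [−0.59, 0.01] between CMT and CM and 0.22 [−0.09, 0.54] between CMT and IM, the last of which was 0.06 against the core median. Between CM and IM these ratios differed in opposite directions. The recovered length of PSMB6 was short, at 413 bases, so its reads may be too low and the PSMB9 to PSMB6 intervals too wide. PSMB8 to PSMB9 itself was 1.81, 1.20 and 1.38, with a log2 change of −0.60 [−0.91, −0.29] between CM and IM and −0.39 [−0.71, −0.07] between CMT and IM. The PSMB8 to PSMB9 ratio was not planned. Its change follows from PSMB8 and PSMB9 differing from IM in opposite directions, so it is no separate result. In every library the inducible subunit was the minor one, at less than 0.25 of its constitutive counterpart on the UQRPKM scale.

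In the RefSeq annotation, PSMB8 and PSMB9 lie beside the genes of the peptide transporter TAP, in the order TAP2, PSMB8, TAP1 and PSMB9. TAP1 was at 277, 244 and 197 UQRPKM in IM, CM and CMT, and TAP2 at 233, 181 and 162 UQRPKM. IM was the highest and CMT the lowest library for TAP1, TAP2 and PSMB8, and PSMB9 alone among these neighbours was highest in CM. Between CMT and IM the log2 ratio was −0.49 [−0.62, −0.36] for TAP1 and −0.52 [−0.66, −0.38] for TAP2.

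**Figure D4:**
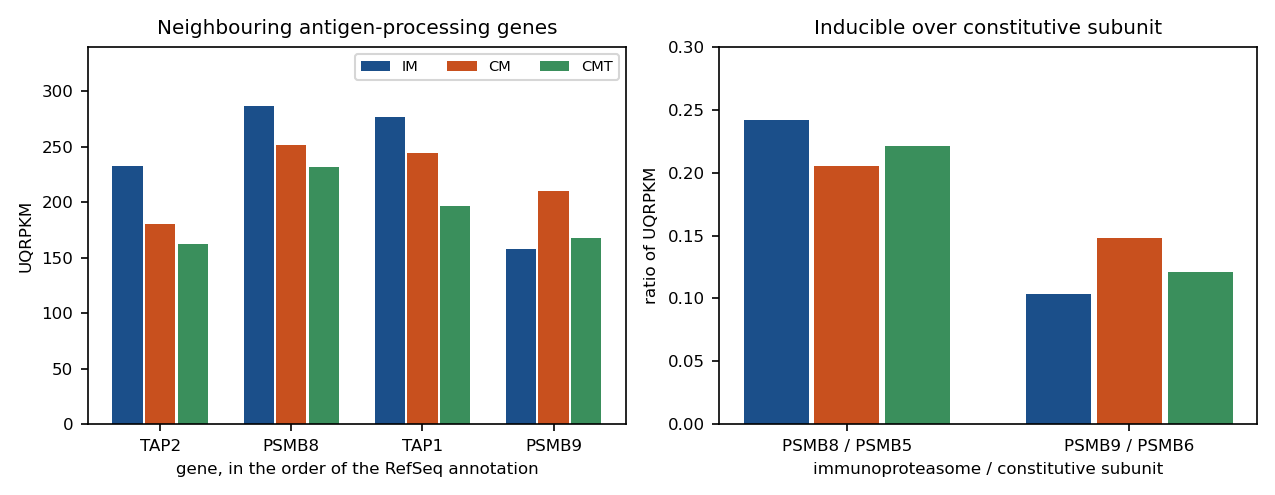
Left, level in UQRPKM of PSMB8, PSMB9 and the neighbouring TAP genes, 1 bar per library. Right, ratio of each inducible subunit to the constitutive subunit it replaces, where PSMB9 to PSMB6 is highest in CM (0.148) and PSMB8 to PSMB5 highest in IM (0.242); each group is 1 library, so no error bars are drawn.

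The wider list of class I peptide supply and interferon genes (20 of 21 in the files) held genes that differed in both directions. Between CM and IM, 0 of the 17 measured genes were 1.5-fold higher and 0 lower, beside 8.38% and 10.4% of all mRNA genes, with a median log2 ratio of −0.10. CXCL10 at 0.57 [0.33, 0.82] and GBP1 at −0.50 [−0.59, −0.41] were short of that fold. Between CMT and CM, 2 were higher (IRF8 and UBD, beside 9.53% of all) and 0 lower (beside 9.97%), with a median of 0.03. Between CMT and IM, 1 was higher (CXCL9, beside 8.81%) and 2 lower (SLA-1 and IRF1, beside 11.9%), with a median of −0.06. IRF1, a transcription factor of the interferon response, was at 349, 327 and 232 UQRPKM. SLA-1, a class I heavy chain, was at 13658, 11205 and 8676 UQRPKM, and SLA-3, another heavy chain, ran the other way at 6385, 6701 and 6932 UQRPKM, but SLA genes are so alike that reads may be divided between them. UBD, an interferon-inducible ubiquitin-like protein that targets proteins to the proteasome, was at 263, 248 and 387 UQRPKM. IFNG itself had 5, 0 and 1 reads.

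Among caps and the inhibitor, PSME1 and PSME2, which together form an interferon-inducible cap, were far more abundant than the rest and hardly differed between libraries. PSME1 was at 2754, 2950.5 and 2913 UQRPKM in IM, CM and CMT, and PSME2 at 1194, 1183 and 1080.3 UQRPKM. PSME1 to PSME2, a ratio that was not planned, was 2.31, 2.49 and 2.70. Its log2 change was 0.11 [−0.09, 0.31] between CM and IM, 0.11 [−0.09, 0.32] between CMT and CM and 0.23 [0.02, 0.43] between CMT and IM. PSME1 and PSMB9 were both highest in CM, where PSME1 was 1.07-fold and PSMB9 1.33-fold its level in IM. PSME2 and PSMB8 were instead highest in IM. For PSME1 the interval between CMT and CM took in 0, at −0.02 [−0.08, 0.04]. For PSME2 the interval between CM and IM did too, at −0.01 [−0.20, 0.17].

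PSME3, a nuclear cap, was at 205, 207 and 236 UQRPKM, highest in CMT, with a log2 ratio of 0.19 [0.01, 0.36] between CMT and CM. PSME4, a cap linked to histone breakdown, was at 69.6, 80.2 and 70.4 UQRPKM, highest in CM. PSMF1, the inhibitor, was at 163, 197 and 181 UQRPKM, with a log2 ratio of 0.27 [0.08, 0.46] between CM and IM. Over these 5 genes, the median log2 ratio was 0.10 between CM and IM, −0.12 between CMT and CM and 0.08 between CMT and IM.

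The chaperones held both of the genes that differed most between CMT and CM in the upward direction. PSMG4 was at 249, 316 and 389 UQRPKM in IM, CM and CMT, on 195, 236 and 299 reads. IM was the lowest and CMT the highest library, with log2 ratios of 0.34 [0.06, 0.63] between CM and IM, 0.30 [0.05, 0.55] between CMT and CM and 0.65 [0.38, 0.91] between CMT and IM. That last interval takes in folds below 1.5, and CMT was also the library with the skeletal muscle markers, whose part in the PSMG4 values was not tested. PSMG3, with which PSMG4 pairs in building the alpha ring, was at 426, 389 and 407 UQRPKM and did not show this order. PSMG1 and PSMG2, the other pair of core chaperones, were at 159.8, 178 and 160.5 UQRPKM and at 131, 139.7 and 126 UQRPKM, and the interval took in 0 in each comparison.

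PSMD5, which helps to assemble the base of the 19S particle, was at 428, 331 and 446 UQRPKM, so CM stood below both other libraries. Its log2 ratio was −0.37 [−0.50, −0.25] between CM and IM, 0.43 [0.30, 0.56] between CMT and CM and 0.06 [−0.06, 0.17] between CMT and IM. PSMD9, another base chaperone, was at 443, 394 and 389 UQRPKM, with intervals that took in 0 in each comparison. Its recovered length was short, at 386 bases, so these intervals may be too wide. Over the 6 measured chaperones, the median log2 ratio was −0.02 between CM and IM (0.04 scaled by total mRNA reads), 0.02 between CMT and CM, and −0.03 between CMT and IM (0.09 scaled by total mRNA reads).

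Of 25 listed genes that work with the proteasome, 15 were in the files and measured. Of these, UCHL5, a deubiquitinase that docks on the 19S particle, was the only one past 1.5-fold: higher between CM and IM (beside 8.38% of all mRNA genes), lower between CMT and CM (beside 9.97%) and lower between CMT and IM (beside 11.9%). It was at 70.1, 113 and 40.3 UQRPKM in IM, CM and CMT, on 78, 120 and 44 reads, with a log2 ratio of 0.69 [0.27, 1.12] between CM and IM, −1.49 [−2.02, −0.98] between CMT and CM and −0.80 [−1.36, −0.25] between CMT and IM. Medians over the 15 were −0.06 between CM and IM, −0.08 between CMT and CM and −0.01 between CMT and IM. VCP, the segregase that pulls proteins out of complexes, was at 1804, 1628 and 1354 UQRPKM. NFE2L2, a transcription factor known to act on proteasome genes under oxidative stress, was at 404, 493 and 416 UQRPKM, highest in CM.

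The 5 ubiquitin ligases known from wasting muscle were all measured. TRIM63 was at 13.8, 17.4 and 45.0 UQRPKM and FBXO32 at 93.0, 63.1 and 107 UQRPKM in IM, CM and CMT. Between CMT and CM these 2 of the 5 were at least 1.5-fold higher and 0 lower, beside 9.53% and 9.97% of all mRNA genes, with a median of 0.22 over the list. Between CMT and IM, TRIM63 alone passed 1.5-fold (beside 8.81% of all higher), with a median of 0.20, and between CM and IM none did (beside 8.38% higher and 10.4% lower), with a median of −0.16. CMT was also the library with the skeletal muscle markers, at 5894 UQRPKM against 79.6 in IM, and their part in these ligase values was not tested.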

How the data were processed

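Visceral adipose RNA of IM, CM and CMT pigs was pooled by group and sequenced on an Ion Proton, with 1 library per group. As the paper's methods state, reads were mapped to Sscrofa10.2 with MapSplice. The authors deposited RPKM values scaled by the upper quartile (UQRPKM). The counting tool, the annotation and the use of strand are not given in the sources used here.

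Groups came from the sample labels. Reads were recovered as the shortest gene length giving whole reads in all libraries. This held for 100% of 20838 genes above 0, and no value was off by more than 7.65e-09 of itself. A length that is too short by a common factor gives reads that are too low, which widens an interval and leaves UQRPKM unaffected. In a self-test on 1500 made-up genes with known reads, 92.6% were exact and 7.4% were too low in this way.

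A gene was tested at 1 UQRPKM or more in both libraries and counted as different at 1.5-fold, the paper's thresholds without its test. DEGSeq was not run. Alternatives were a pseudocount of 1, a lower fold (25% higher or 20% lower), a fold of 2, filters of above 0 or 50 reads, 2 other scalings, summed levels and another denominator. Subunits under other names, matched through RefSeq gene names (Sscrofa11.1), and the limit of 200 reads were added after seeing the data.

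Every member was named, with all values for the immunoproteasome genes, their counterparts, PSME1, PSME2, and genes past 1.5-fold. Other members' values were added for description. The members and the lists (partners, class I and interferon genes, muscle ligases, cell type markers) were chosen with earlier results of these data known. Gene positions are not given because the RefSeq table is of another build, and no promoter was searched for motifs. Python 3.11.15, pandas 2.3.3, NumPy 2.4.6, SciPy 1.17.1 and matplotlib 3.10.9 were used.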

Additional observations from a re-analysis of the deposited data

How the results depend on the processing

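Over 27 results, 147 alternative values were computed, of which 130 stayed within the limits set for an unchanged value, 17 moved and 0 reversed. Only a median or ratio change whose main interval excluded 0 could be called reversed, and a count never could. The 0 reversed therefore says little. Counts at 1.5-fold moved with the threshold. At 25% higher or 20% lower, 4 proteasome genes were higher and 2 lower between CM and IM, 1 and 1 between CMT and CM, and 4 and 1 between CMT and IM. In that order of comparisons, 84.7%, 82.8% and 84.1% of all mRNA genes had a log2 ratio at or below 0.35, just past 25% higher. At or below −0.35, just past 20% lower, were 21.2%, 18.4% and 23.7% of all mRNA genes. These shares are not matched for depth. By the counting interval alone the counts of proteasome genes were 11 and 7, 5 and 8, and 10 and 9. All mRNA genes had shares of 15.6% and 26.6%, 17.3% and 21.1%, and 15.0% and 29.5%. At 2-fold, 0 proteasome genes were higher between CMT and IM, where 96.0% of all mRNA genes had a log2 ratio at or below 1. With any level above 0 in both libraries 2 proteasome genes were at least 1.5-fold higher, since PSMD10 with 1 and 3 reads was added to PSMG4. The share of all mRNA genes was not computed with that filter. Scaling by total mRNA reads moved the median log2 ratio between CMT and IM to 0.0711 for the 19S particle and 0.194 for caps and inhibitor. Of 81 alternative medians, 14 changed sign, so the sign of a class median near 0 is not firm. With the median of the core subunits as denominator, the log2 change for PSMB8 between CMT and IM was −0.329, and between CMT and CM it turned from 0.10 to −0.07, with an interval that took in 0 in the first place. The PSMB10 to PSMB7 ratio could not be formed, since PSMB10 was listed at 0. No paired analysis was possible because each group is 1 library and no test was made. By recovered reads, depth limits PSMB9, PSMD9, PSMG1, PSMG2 and PSMG4 most, each with 195 to 299 reads per library. The true reads of any of these genes may be higher by a common factor. Among the measured members, PSME2, PSMD9 and PSMB6 had the shortest recovered lengths, at 272, 386 and 413 bases. Their reads may be too low and their intervals too wide, and PSMD9 may not be among the least covered.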
